A study of Mus musculus with 6 samples.

Results

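The genes described here are the nuclear genes of the respiratory chain and ATP synthase, taken from a table of log2 TPM (length-corrected shares of a library's transcripts) by gene symbol. Symbols beginning with Nduf, Uqcr, Cox4 to Cox8 or Atp5, and the symbols Sdha to Sdhd, gave 97 rows. Leaving out 4 symbols ending in -ps, with or without a number, and the 3 muscle isoforms Cox6a2, Cox7a1 and Cox8b left 90 genes of the 23494 in the table. Among those 4, Ndufb1-ps stood at 90.1 to 124 TPM over the 6 libraries, a level found among complex I members. The symbol ending therefore does not mark a silent gene. Of the 90, 79 were counted as subunit genes: 37 of complex I (with Ndufb4c, which has no coding transcript in the annotation), 4 of complex II, 8 of complex III, 14 of complex IV (Ndufa4 counted there) and 16 of complex V. The other 11 share a symbol pattern but encode no subunit: the 8 assembly factors Ndufaf1 to Ndufaf8, Ndufa4l2, Cox7a2l and Atp5s. The comparison ran on 87 of the 90, those whose mean over the 6 libraries reached 1 TPM.

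All mice were female wild-type C57BL/6 animals carrying B16F10, a mouse melanoma cell line, under the skin of the right flank. Once tumours averaged about 60 mm3, 8 mice a group were randomised to the vehicle, phosphate-buffered saline, or to recombinant MANF (rMANF) at 2 µg/kg, injected into the peritoneum daily. MANF is a secreted protein of the endoplasmic reticulum. RNA labelled as heart was sequenced from 3 libraries per group, labelled biological replicates. The sources used here give neither the age of the mice nor the day of collection, and the table's column names for the vehicle libraries read IgG where the treatment label reads vehicle.

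The respiratory chain sits in the inner mitochondrial membrane. Complex I (NADH dehydrogenase) and complex II (succinate dehydrogenase) pass electrons to ubiquinone, complex III passes them on to cytochrome c, and complex IV (cytochrome c oxidase) reduces oxygen; complexes I, III and IV pump protons. ATP synthase, complex V, lets the protons back through its c ring, whose rotation drives the catalytic F1 head through a central stalk while a peripheral stalk holds the head still. Most subunits are encoded in the nucleus and imported, a few in mitochondrial DNA, and heart muscle is among the tissues richest in all of them.

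The libraries were checked against the labelled tissue. Each held values above 0 for 18830 to 19298 genes. The 12 cardiomyocyte markers (Actc1, Tnnt2, Myl2, Nppa and others) summed to between 8.26 and 68.8 TPM, with only 5 of the 12 at a mean of 1 TPM or more, so that the defining genes of heart muscle were near absent from libraries labelled heart. The 5 markers of dividing cells summed to between 828 and 935 TPM, with Ube2c, a mitotic ubiquitin-conjugating enzyme, at 426 to 518 TPM. Of 5 melanocyte markers, 1 had a row, at no more than 0.34 TPM. These values go against the tissue label; which tissue the RNA came from was not tested, so every level here belongs to libraries labelled heart and not to an established heart sample. Skeletal muscle fibre markers (20 genes) summed to 1504 TPM in vehicle replicate 2 and to between 154 and 246 TPM in the other 5 libraries. Of those sums, Eno3 alone gave 125 to 172 TPM in every library. All 20 markers lay lower with rMANF, 12 without overlap (60%, all genes 9.02%), and none passed the test. Their mean log2(TPM + 1) was 2.42, 5.235 and 1.43 with vehicle against 1.21, 0.82 and 0.85 with rMANF. The 14 macrophage markers summed to between 3439 and 3886 TPM in the vehicle libraries and between 1992 and 2712 TPM in the rMANF libraries; all 14 lay lower with rMANF and none passed the test. The 5 endothelial markers lay higher, 2 of them without overlap (40%, all genes 18.9%), namely Tie1 (0.67) and Cdh5 (0.61). The sums of the 5 were 30.2 to 48.4 TPM with vehicle against 49.6 to 61.3 TPM with rMANF, and none passed the test. TPM are shares of a library, so the sequencing depth behind a value is unknown, and a lower level can mean fewer cells of a type or less RNA per cell, which cannot be told apart in tissue RNA.

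No member passed the test between rMANF and vehicle. The test was limma on log2(TPM + 1), with p-values adjusted by the Benjamini-Hochberg method over all 12865 genes tested; 0 of these genes passed an adjusted p of 0.05 (0.00%), and the lowest adjusted p of a member was 0.116 (Atp5j2). At an unadjusted p under 0.05, 17 of the 87 members lay lower and 3 higher, where 6.63% of all tested genes lay lower and 13.9% higher. In 24 members (27.6%) the highest rMANF value lay under the lowest vehicle value, against 9.02% of all genes tested. In 6 members (6.90%) the groups stood apart the other way, against 18.9% of all genes; with median-of-ratios scaling 1 member did so, against 15.6% of all genes. That scaling left 24 members below (27.6%), against 14.3% of all genes. The median difference was −0.10 over the members and 0.04 over all genes, on the log2(TPM + 1) scale. Differences of single members ran from −0.40 to 0.33. When limma weighted the libraries by their spread, 737 of the 12865 genes tested passed, among them 2 of the 87 members. That is a smaller share of the members than of all genes. The weights were 0.2774, 0.5382 and 2.998 for vehicle replicates 1, 2 and 3, so the vehicle side rested mostly on replicate 3. The 2 members were Uqcrh (limma adjusted p = 0.0319) and Ndufa11 (0.0434). Ndufa11, an accessory subunit of the complex I membrane arm, stood at 242, 286 and 294.5 TPM with vehicle against 240.4, 236 and 236 TPM with rMANF.

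**Figure D1:**
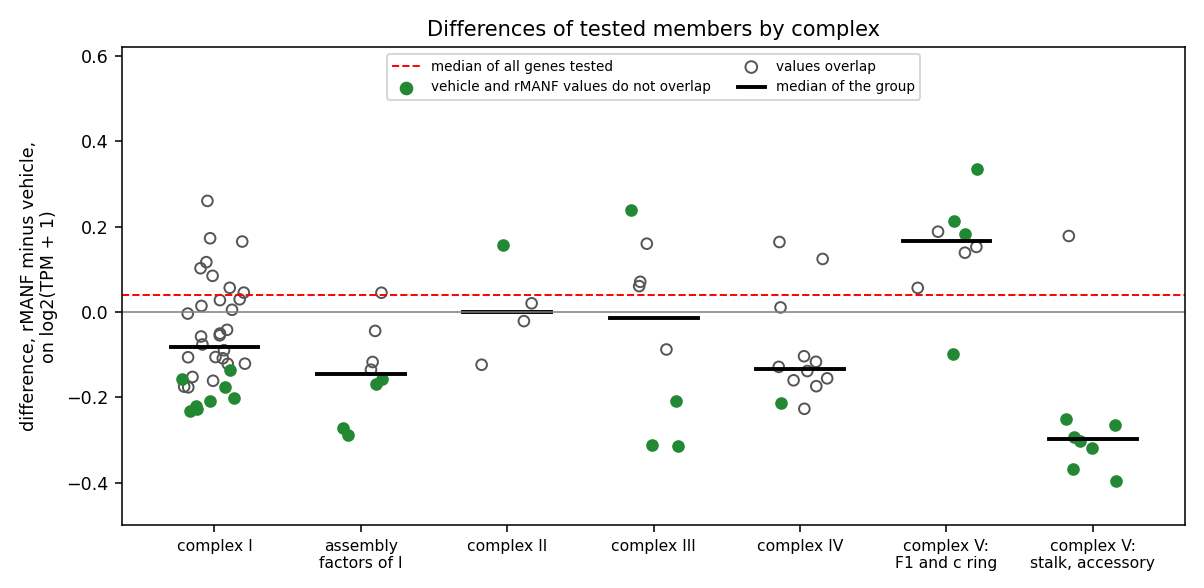
Difference of each tested member between rMANF and vehicle on log2(TPM + 1) (vertical axis), grouped by complex, with complex V split by part; filled points are members whose vehicle and rMANF values do not overlap, black bars are group medians and the dashed line is the median of all genes tested (0.04). Of the 8 peripheral stalk and membrane accessory subunits of complex V, 7 lie between −0.40 and −0.25, and 7 of the 8 F1 and c ring subunits lie above 0.

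Summed over its members, complex V stood at 7483, 8434 and 8415 TPM in the vehicle libraries and 8125, 7803 and 7576 TPM in the rMANF libraries, and the groups overlapped. The sums also overlapped for complex I (5586 to 6516 TPM with vehicle, 5586 to 6113 TPM with rMANF), for complex II (478 to 541 and 485 to 514 TPM), for complex III (3111 to 3699 and 3072 to 3256 TPM) and for complex IV (6337 to 7443 and 6198 to 6974 TPM). The overlap in complexes II, III, IV and V came from vehicle replicate 1, which had the lowest vehicle sum of each: vehicle replicates 2 and 3 lay above every rMANF library in these 4, by the least in complex IV (6976 against 6974 TPM), and not in complex I (6108 against 6113 TPM). Median differences were −0.08 in complex I, −0.00 in complex II, −0.01 in complex III, −0.13 in complex IV and −0.02 in complex V. Without vehicle replicate 1 they were −0.12, −0.00, −0.11, −0.22 and −0.21. Without vehicle replicate 2 the median was −0.03 in complex I, 0.02 in complex III and −0.09 in complex IV. The difference between mean log2 levels of complex V and complex I within a library was 1.55 ± 0.04 (SD, n = 3) with vehicle and 1.56 ± 0.02 with rMANF. Members of a complex differed among themselves, over the widest range in complex V (−0.40 to 0.33).

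In ATP synthase, the 4 genes of the peripheral stalk all had non-overlapping values, lower with rMANF, with a median difference of −0.28. So did 3 of the 4 small membrane accessory members, with a median of −0.31. Usmg5, a small membrane subunit outside the symbol rule and not counted among these 4, overlapped (difference −0.025). Over all genes tested, 9.02% lay lower without overlap and 18.9% higher. The F1 head with its central stalk (5 genes, median 0.15) and the c ring (3 genes, median 0.18) lay higher in 7 of 8 genes. Without vehicle replicate 1 the median of these 8 genes was 0.06, under the 0.08 of all genes, and that of the stalk and accessory genes was −0.32. None of these differences passed the test. The grouping of the subunits into these parts follows the structure of the enzyme, but it was chosen after the values were seen, so the split is a description.

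Atp5j2 encodes subunit f, a small membrane subunit at the base of the stator (chr5:145183698-145192062, minus strand, GRCm38). Its level was 297, 293 and 253 TPM in the vehicle libraries and 231, 218 and 191 TPM in the rMANF libraries. All rMANF libraries were below all vehicle libraries, a difference of −0.40 ± 0.10 (SE; limma adjusted p = 0.116).

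Atp5j encodes coupling factor 6 (F6) of the peripheral stalk (chr16:84827866-84835625, minus strand). It stood at 424, 408 and 384 TPM with vehicle against 339.9, 341 and 310.4 TPM with rMANF. The groups did not overlap, and the difference was −0.29 ± 0.08 (limma adjusted p = 0.119).

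Atp5h, subunit d of the stalk, ran from 769 TPM in vehicle replicate 1 to 626 and 572 TPM in the other vehicle libraries, and lay at 511, 502.5 and 497 TPM with rMANF. Here the vehicle libraries spread widely while the rMANF libraries lay close together; the difference was −0.37 ± 0.11 (limma adjusted p = 0.141). Atp5f1, subunit b and the long rod of the stalk, stood at 373, 371 and 351 TPM with vehicle against 319.6, 313 and 287 TPM with rMANF. That is a difference of −0.25 ± 0.08 (limma adjusted p = 0.142), again without overlap. Atp5o encodes the oligomycin sensitivity conferring protein, which ties the stalk to the top of the F1 head; it stood at 253, 291 and 268 TPM with vehicle against 235, 215 and 224 TPM with rMANF.

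Among the membrane accessory subunits, Atp5l (subunit g) stood at 859.9, 911 and 863 TPM with vehicle against 785, 684 and 672 TPM with rMANF. All rMANF libraries were lower, by −0.30 ± 0.09 (limma adjusted p = 0.128). Atp5mpl, which encodes a small proteolipid of the membrane part, lay at 540.4, 594 and 539 TPM with vehicle against 505, 425.5 and 414 TPM with rMANF (−0.32 ± 0.10, limma adjusted p = 0.142). The exception was Atp5k, subunit e, at 174.5 TPM in vehicle replicate 1, 599.7 and 568 TPM in the other vehicle libraries and 399.8, 508.5 and 424 TPM with rMANF. With all libraries its difference was 0.18. Without vehicle replicate 1 it was −0.40, and then all 8 stalk and accessory members lay below vehicle without overlap. The share of all genes that did so is given with that library below.

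On the rotating and catalytic side, Atp5d, the delta subunit of the central stalk, stood at 240, 238 and 299 TPM with vehicle against 340.4, 315 and 321 TPM with rMANF. It was the largest positive difference of any member, 0.33 ± 0.10 (limma adjusted p = 0.146), with no overlap. Atp5b, the catalytic beta subunit, was the most abundant of the complex V members. It stood at 1006, 835 and 940.3 TPM with vehicle against 1070, 1104 and 1042 TPM with rMANF. The rMANF values were all higher, by 0.21 ± 0.09 (limma adjusted p = 0.227). Atp5a1, the alpha subunit that alternates with beta in the head, overlapped between groups (347 to 416.5 TPM with vehicle, 412 to 444.5 TPM with rMANF, difference 0.15). Atp5c1, the gamma subunit that turns inside the head, was the 1 member of this side that lay lower: 322, 316 and 326 TPM with vehicle against 304, 303 and 293 TPM with rMANF, a difference of −0.10 that was small but free of overlap.

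**Figure D2:**
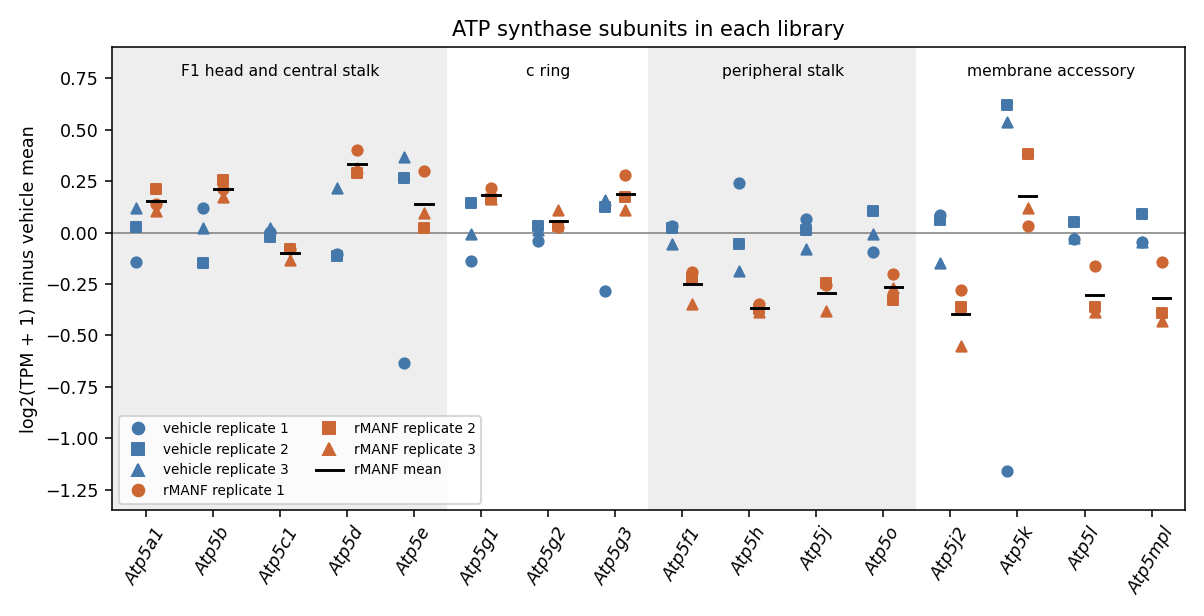
Each ATP synthase subunit in each library, as log2(TPM + 1) minus the mean of the 3 vehicle libraries (vertical axis); circles, squares and triangles are replicates 1, 2 and 3, blue is vehicle, orange is rMANF, and the black bar is the rMANF mean. The 4 peripheral stalk genes show every rMANF point under every vehicle point, and vehicle replicate 1 is far below the rest for Atp5e and Atp5k.

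The c ring is built from 1 protein made by 3 genes that differ in their import signals. Atp5g2 carried 55.9 ± 3.50% (SD, n = 3) of the summed TPM of the 3 genes with vehicle and 53.6 ± 2.16% with rMANF, Atp5g3 42.7 ± 3.51% and 44.9 ± 2.15%, and Atp5g1 1.44 ± 0.08% and 1.52 ± 0.01%. The shares overlapped between groups for each gene (exact permutation p = 0.3 to 0.5, two-sided; the smallest p that 3 against 3 libraries allow is 0.1). Atp5g1 itself stood at 19.3, 23.7 and 21.2 TPM with vehicle against 24.97, 23.98 and 24.0 TPM with rMANF, just clear of overlap (difference 0.18).

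Summed by part, the peripheral stalk held 1819, 1696 and 1575 TPM with vehicle against 1406, 1372 and 1318 TPM with rMANF. The groups did not overlap. The F1 head held 2452, 2784 and 3058 TPM against 3165, 3015 and 2959 TPM, which overlapped. Within each library, the mean log2 level of the 8 F1 and c ring genes minus that of the 8 stalk and accessory genes was −0.33, −0.36 and −0.17 with vehicle and 0.09, 0.08 and 0.16 with rMANF. The rMANF values all lay above the vehicle values. The zero of this measure has no meaning of its own, since it depends on which genes are averaged, and the sets were chosen after their values were seen.

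**Figure D3:**
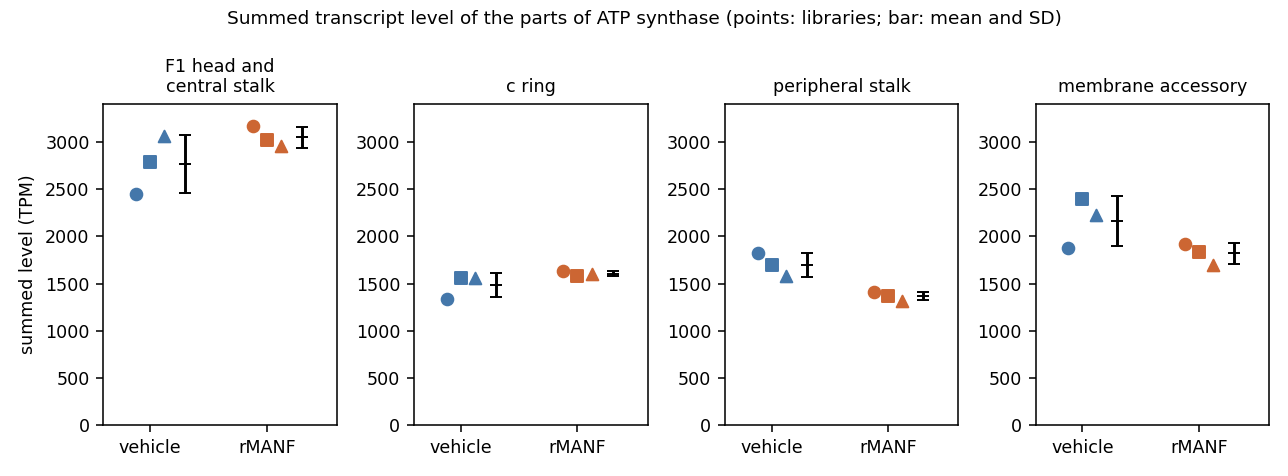
Summed level in TPM (vertical axis, from 0) of 4 parts of ATP synthase in vehicle (blue) and rMANF (orange) libraries; points are libraries and bars give the mean and SD of 3. The peripheral stalk shows 3 rMANF libraries at 1318 to 1406 TPM, under the vehicle libraries at 1575 to 1819 TPM, and the F1 head overlaps.

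Without vehicle replicates 1 and 2 the median differences of the F1 and c ring genes and of the stalk and accessory genes were 0.04 and −0.25. With the muscle marker level as a covariate they were 0.17 and −0.23. In that covariate fit 0 members had an unadjusted limma p under 0.05, against 20 without the covariate. The lowest limma adjusted p of a member was then 0.667. The macrophage and skeletal muscle markers and, in the other direction, the endothelial markers lay apart between the same groups, as given above. Their part in the difference was not tested.

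Promoters of complex V genes are shown because most stalk genes lay lower and most head genes did not. RefSeq windows (GRCm38.p6) of 250 bases before to 50 after the annotated start were found for 74 of the 90 members, 2 of them by another name of the gene. They were searched on both strands for the core letters of 3 factors known for respiratory genes: GCGCA and GCGC with any 1 base between them for NRF1, CCGGAAG for ETS factors such as GABP, and AAGATGGC for YY1. Capitals mark a match on either strand. Atp5j has 2 windows, and both are shown. The first 4 windows belong to stalk genes and the last 2 to the c ring and the F1 head, read on the strand of the gene: Atp5j at chr16:84834927-84835226 and, at the start of the gene as GENCODE has it, chr16:84835576-84835875 (minus), Atp5h at chr11:115419870-115420169 (minus), Atp5f1 (Atp5pb in RefSeq) at chr3:105959214-105959513 (minus), Atp5g3 at chr2:73911277-73911576 (minus) and Atp5b at chr10:128083057-128083356 (plus).
Atp5j: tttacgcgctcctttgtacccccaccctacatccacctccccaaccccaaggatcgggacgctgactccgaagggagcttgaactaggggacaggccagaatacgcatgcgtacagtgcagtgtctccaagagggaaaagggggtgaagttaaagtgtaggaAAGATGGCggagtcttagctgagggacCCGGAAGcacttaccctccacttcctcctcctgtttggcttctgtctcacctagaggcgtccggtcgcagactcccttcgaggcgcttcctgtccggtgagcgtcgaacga
Atp5j second window: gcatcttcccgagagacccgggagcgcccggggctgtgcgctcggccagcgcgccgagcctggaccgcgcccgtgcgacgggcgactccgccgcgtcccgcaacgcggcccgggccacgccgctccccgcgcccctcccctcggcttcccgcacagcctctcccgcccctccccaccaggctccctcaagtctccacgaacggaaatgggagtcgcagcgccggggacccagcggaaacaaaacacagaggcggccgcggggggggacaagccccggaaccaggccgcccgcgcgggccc
Atp5h: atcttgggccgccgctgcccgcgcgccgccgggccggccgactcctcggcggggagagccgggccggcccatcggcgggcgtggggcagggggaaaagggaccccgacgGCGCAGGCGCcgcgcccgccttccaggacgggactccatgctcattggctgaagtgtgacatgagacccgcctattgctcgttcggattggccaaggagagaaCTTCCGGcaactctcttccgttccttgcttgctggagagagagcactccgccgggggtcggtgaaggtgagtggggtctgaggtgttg
Atp5f1: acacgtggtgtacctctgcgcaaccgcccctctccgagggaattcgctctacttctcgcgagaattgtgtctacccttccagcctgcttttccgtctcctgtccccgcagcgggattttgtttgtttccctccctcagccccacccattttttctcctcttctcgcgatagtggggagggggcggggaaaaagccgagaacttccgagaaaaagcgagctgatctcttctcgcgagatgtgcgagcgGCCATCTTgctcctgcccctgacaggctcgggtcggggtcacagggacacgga
Atp5g3: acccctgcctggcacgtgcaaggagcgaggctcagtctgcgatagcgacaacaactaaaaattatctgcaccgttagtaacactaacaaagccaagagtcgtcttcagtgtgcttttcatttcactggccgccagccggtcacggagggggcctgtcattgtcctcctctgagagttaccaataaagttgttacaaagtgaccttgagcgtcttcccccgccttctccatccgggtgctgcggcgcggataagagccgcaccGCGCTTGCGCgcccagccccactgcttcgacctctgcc
Atp5b: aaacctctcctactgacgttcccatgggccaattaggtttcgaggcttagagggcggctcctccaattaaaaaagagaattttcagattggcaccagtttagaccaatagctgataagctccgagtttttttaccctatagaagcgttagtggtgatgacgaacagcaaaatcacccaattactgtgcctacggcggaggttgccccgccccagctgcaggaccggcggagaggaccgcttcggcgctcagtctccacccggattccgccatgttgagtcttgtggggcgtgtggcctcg

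The first Atp5j window carries the YY1 letters from base 163 and the ETS letters from base 190, Atp5h the NRF1 letters from base 110 and the ETS letters from base 213, Atp5f1 the YY1 letters from base 248 and Atp5g3 the NRF1 letters from base 263, counted from the 5′ end of the window. The second Atp5j window and the Atp5b window hold none of the 3. A gene with several windows was counted where any of them held the letters. Of the 7 stalk and accessory genes with a window, 3 held NRF1, 4 ETS and 3 YY1 letters; of the 7 F1 and c ring genes, 3 held NRF1, 1 ETS and 0 YY1 letters. Over the 72 tested members with a window, 19 held NRF1 (26.4%), 18 ETS and 11 YY1 letters (15.3%), against 11.7%, 21.2% and 5.44% of 9389 tested genes with a window. A match describes the letters and is not a measured binding site.

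Complex III held members on both sides of 0, 4 lower and 4 higher. Uqcrh, the acidic hinge protein beside cytochrome c1, stood at 653.5, 785 and 749 TPM with vehicle against 606, 575 and 574 TPM with rMANF. The rMANF libraries were all lower, by −0.31 ± 0.09 (limma adjusted p = 0.128). Uqcrb, which lines the ubiquinone pocket, stood at 471, 447 and 432 TPM with vehicle against 415, 357.5 and 319 TPM with rMANF, without overlap (−0.31 ± 0.11, limma adjusted p = 0.163). Uqcr10, the most abundant complex III gene, had 957, 1038 and 1011 TPM against 828, 900.1 and 872.5 TPM, again without overlap (−0.21 ± 0.07, limma adjusted p = 0.179).

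The core subunit Uqcrc1 was the 1 member that lay higher without overlap. It stood at 150.1, 148 and 146.5 TPM with vehicle against 192, 168 and 166 TPM with rMANF. Its vehicle libraries lay close together, all rMANF libraries were above them, and the difference was 0.24 ± 0.08 (limma adjusted p = 0.170). Uqcrc2, the other core subunit, and Uqcrfs1, the Rieske iron-sulfur protein, overlapped between groups, with differences of −0.09 and 0.07. Cyc1, cytochrome c1, carries no Uqcr symbol and so is outside the 90; it stood at 122, 138 and 136 TPM with vehicle against 164, 151 and 143 TPM with rMANF (0.21 ± 0.09, limma adjusted p = 0.241). Of the 5 accessory subunits, 3 lay lower without overlap (60%, all genes 9.02%), and Uqcrq (0.06) and Uqcr11 (0.16) overlapped.

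In complex I, 24 of 36 tested subunits lay lower, 8 of them without overlap (22.2%, all genes 9.02%), and 0 lay higher without overlap (all genes 18.9%). The complex is assembled from a module that oxidises NADH (N), a module that reduces ubiquinone (Q) and a membrane arm that pumps protons. Median differences were −0.01 over the 8 N module genes, −0.12 over the 8 Q module genes and −0.07 over the 20 tested membrane arm genes. The 7 nuclear core subunits, among them those that hold the flavin and the iron-sulfur clusters, had a median of 0.00 and the 29 tested accessory subunits one of −0.09.

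Ndufa7, an accessory Q module subunit and the most abundant of complex I, stood at 548, 567 and 554 TPM with vehicle against 482, 452 and 487 TPM with rMANF. The vehicle libraries lay close together, and every rMANF library was lower (−0.23 ± 0.07, limma adjusted p = 0.142). Ndufa10, an accessory subunit of the membrane arm, stood at 74.7, 72.9 and 71.5 TPM with vehicle against 67.2, 58.6 and 61.1 TPM with rMANF (−0.23 ± 0.08, limma adjusted p = 0.183). Ndufv2, an iron-sulfur subunit of the N module, had 212, 203 and 194 TPM against 187, 167.5 and 167.5 TPM (−0.22 ± 0.08, limma adjusted p = 0.190). These groups did not overlap either. The other 5 such subunits were Ndufab1, Ndufa11, Ndufs8, Ndufb7 and Ndufa6, with differences from −0.21 to −0.14. The largest difference the other way was Ndufa8, a membrane arm subunit, at 188, 229 and 221 TPM with vehicle against 289, 226 and 252 TPM with rMANF (0.26 ± 0.12, limma adjusted p = 0.257), where the groups overlapped.

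Complex IV had 9 of 12 tested subunits lower and 1 without overlap (8.33%), a share near the 9.02% of all genes. That one was Cox7c, a small subunit around the catalytic core, at 904.5, 1028 and 916.5 TPM with vehicle against 839, 833 and 784 TPM with rMANF (−0.21 ± 0.08, limma adjusted p = 0.197). Cox4i1, the subunit through which ATP binding regulates the oxidase, had the highest mean level of any member, 1134 TPM, and overlapped: 1272, 1140 and 1113 TPM with vehicle, 1176, 997 and 1109 TPM with rMANF. Cox7a2 (−0.23 ± 0.12, limma adjusted p = 0.315) and Cox6c (−0.17 ± 0.11, limma adjusted p = 0.427) lay lower and Cox6a1 (0.16 ± 0.13, limma adjusted p = 0.522) higher, all with overlap. Cox6a1 had its lowest value, 676.5 TPM, in vehicle replicate 1. Ndufa4, now assigned to complex IV, stood at 629, 849.8 and 875.5 TPM with vehicle against 782, 745.5 and 613.5 TPM with rMANF.

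All 4 subunits of complex II were measured. Sdha, the flavoprotein that oxidises succinate, stood at 80.8, 85.6 and 83.5 TPM with vehicle against 91.9, 95.5 and 91.6 TPM with rMANF. Its rMANF libraries were all higher, by 0.16 ± 0.07 (limma adjusted p = 0.274), on levels that varied little within groups. Sdhb, the iron-sulfur subunit, was at 164.7 to 174 TPM with vehicle against 159 to 172 TPM with rMANF. The membrane anchors Sdhc (difference 0.02) and Sdhd (−0.12) overlapped as well.

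**Figure D4:**
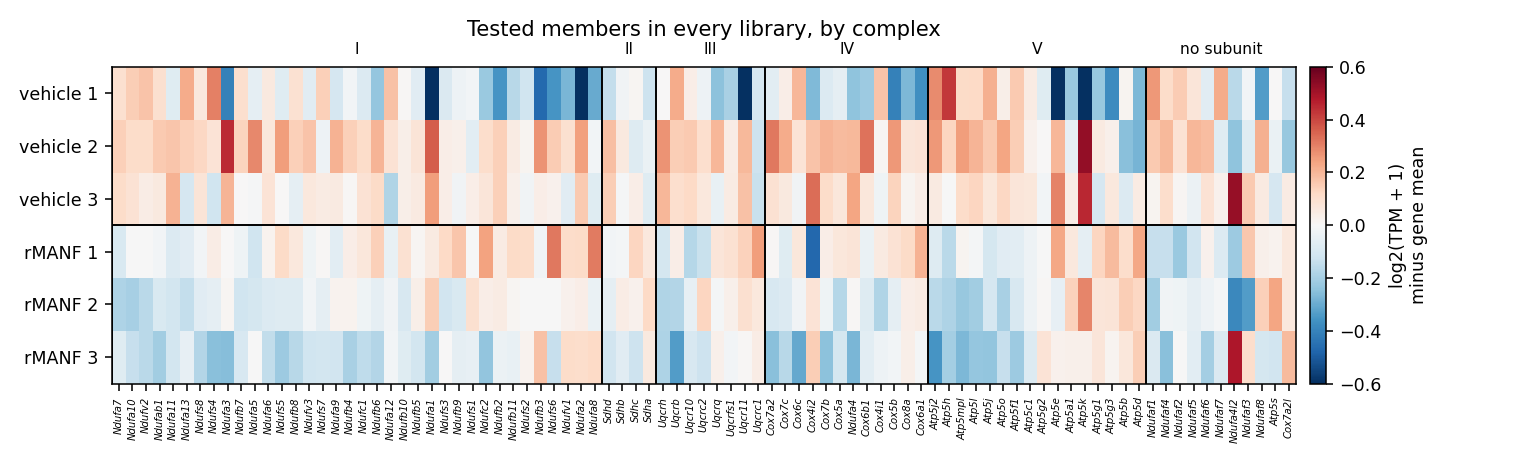
Each tested member (columns, by complex) in each library (rows), coloured by log2(TPM + 1) minus the gene's mean over 6 libraries, with the colour scale ending at −0.6 and 0.6, so that larger deviations share the end colours. Vehicle replicate 1 holds most of the darkest blue cells (Atp5k, Atp5e, Ndufa1, Ndufa2, Uqcr11), and the left end of each complex is red in the vehicle rows and blue in the rMANF rows because columns are ordered by their difference.

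Genes that match the symbols without being subunits included the complex I assembly factors, which stay on intermediates and leave before the enzyme is complete. Of 8, 7 lay lower and 4 did so without overlap (all genes 9.02%), with a median of −0.15. Ndufaf1 stood at 17.7, 16.5 and 14.8 TPM with vehicle against 13.2, 12.5 and 13.8 TPM with rMANF (−0.29 ± 0.10, limma adjusted p = 0.174). Ndufaf4 stood at 18.3, 19.5 and 18.2 TPM and 15.3, 16.7 and 14.1 TPM (−0.27 ± 0.10, limma adjusted p = 0.181). Both were chosen for naming after their values were seen. Cox7a2l, the factor that joins complexes III and IV into supercomplexes, lay higher, at 392, 369.6 and 448 TPM with vehicle against 452, 452 and 493 TPM with rMANF (0.21 ± 0.09, limma adjusted p = 0.251).

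Isoform choice within complex IV distinguishes striated muscle from other tissues. The muscle isoform Cox7a1 stood at 7.54, 25.4 and 16.1 TPM with vehicle against 6.88, 3.51 and 4.55 TPM with rMANF, and made up 5.43 ± 2.25% (SD, n = 3) of Cox7a1 plus Cox7a2 with vehicle and 2.09 ± 0.59% with rMANF (exact permutation p = 0.1, two-sided, the smallest possible). The groups did not overlap in TPM (−1.43 ± 0.39, limma adjusted p = 0.122). With libraries weighted by their spread, Cox7a1 was among the 737 genes that passed the test (−1.52 ± 0.25, limma adjusted p = 0.0288). The muscle marker sums are as given above. Cox6a2 stood at 2.05, 25.02 and 2.84 TPM with vehicle against 0.62, 1.44 and 0 TPM with rMANF, and Cox8b at 3.90, 98.3 and 1.48 TPM and 0, 9.84 and 1.48 TPM. For all 3 isoforms the highest value was in vehicle replicate 2, the library with the highest skeletal muscle marker sum. Cox4i2, the isoform known from lung and low oxygen, made up 0.37 ± 0.11% of Cox4i1 plus Cox4i2 with vehicle and 0.34 ± 0.11% with rMANF. Cox6b1 (−0.12) and Cox8a (0.12), the forms of most tissues, and Ndufa4l2 (−0.08) overlapped between groups.

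The 3 members below the level filter were 2 genes known from testis, Cox6b2 (0, 0.84 and 0.87 TPM with vehicle, 0 in all rMANF libraries) and Cox7b2 (1.29 TPM in vehicle replicate 1, 0 elsewhere), and Ndufb4c (0.91 TPM in rMANF replicate 2, 0 elsewhere).

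One vehicle library stood apart for part of the members. Vehicle replicate 1 was the lowest of the 6 libraries for 27 of 87 members (31.03%), against 17.1% of all genes. The median transcript length was 625 nt in those 27 and 725.5 nt in the other members. Among the tested subunits alone it was 654 nt where this library was lowest and 655 nt elsewhere. In the 29 members with transcripts of at most 600 nt, its log2(TPM + 1) lay by a median of −0.26 from the other vehicle libraries, against 0.01 over 1016 genes that short. The gap was −1.74 for Atp5k, −0.95 for Atp5e, −0.91 for Ndufa1, −0.86 for Ndufa2 and −0.79 for Uqcr11. Atp5e, the epsilon subunit of the F1 head, stood at 538 TPM in vehicle replicate 1, 1005 and 1076 TPM in the other vehicle libraries and 1028, 847.5 and 891 TPM with rMANF. Its difference of 0.14 with all libraries was −0.18 without vehicle replicate 1. Without that library 43 members (49.4%) had every rMANF value below every vehicle value, against 12.9% of all genes. The 6 members that lay above were as many as with all libraries. Over all genes the share above was 18.9% with all libraries, and it cannot fall when a library is left out.

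Transcript length and base composition moved with the comparison. The members' median transcript length was 711 nt, against 1904 nt over all tested genes. Across genes, which are not independent replicates, the difference between groups was more positive at higher GC content (Spearman rho 0.38 over 12828 genes, 0.27 over 87 members) and greater length (0.16 and 0.15). With the trends on GC and length both removed, the median difference was −0.02 over the members, 0.17 over the F1 and c ring genes and −0.23 over the stalk and accessory genes. Then 16 members lay below without overlap (18.4%, all genes 8.598%) and 7 above (8.05%, all genes 14.98%).

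Several members share sequence with copies elsewhere in the genome, and the sources used here do not say how reads were divided between copies. Of the 89 members with coding transcripts in the annotation, 27 shared no run of 31 bases with another gene and 18 shared at least 25% of theirs. The shared part was 85.4% in Atp5l, 58.2% in Uqcrb, 56.9% in Atp5o, 46.9% in Atp5h and 45.9% in Atp5f1, so the levels of these genes are uncertain. Atp5o, Atp5h and Atp5f1 belong to the peripheral stalk, where only Atp5j, at 15.9%, shared under 25%. The description of the stalk therefore rests mostly on genes of uncertain level. Atp5l together with its copy Gm4045 summed to 1000, 1427 and 1691 TPM with vehicle against 917, 915 and 933 TPM with rMANF, also without overlap. Among the 69 tested members sharing under 25%, 18 lay below and 6 above without overlap, beside 9.02% and 18.9% of all genes. The library kit does not mark strand, so antisense reads cannot be told apart.

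The other genes of oxidative metabolism gave no calls either. Of the 13 subunits encoded in mitochondrial DNA, 11 had rows, and all 11 lay lower with rMANF, with a median of −0.73. Of these, 8 lay lower without overlap (72.7%, all genes 9.02%), and the lowest adjusted p of the 11 by limma was 0.0893. Their median lay further below 0 than that of any nuclear complex. Levels were very uneven, with mt-Co1 at 8347 to 14890 TPM. By contrast mt-Co2 stood at 11.99 to 26.14, mt-Co3 at 10.5 to 18.83, mt-Atp6 at 10.65 to 25.35 and mt-Nd3 at 7.63 to 48.7 TPM. How reads were assigned to these genes is not known, so their levels and that median are uncertain. Cycs, cytochrome c, overlapped between groups (−0.21 ± 0.13, limma adjusted p = 0.388). The 13 enzymes of the tricarboxylic acid cycle had a median of 0.02, with 0 below and 1 above without overlap (all genes 9.02% and 18.9%). The 11 genes of coenzyme Q synthesis had a median of −0.01, with 2 below and 2 above (18.2% each way, all genes as given for the cycle). Coq6 stood at 10.8, 9.91 and 10.6 TPM with vehicle against 13.2, 13.7 and 13.0 TPM with rMANF (limma adjusted p = 0.128).

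Assembly factors outside the symbol rule lay on both sides of 0. Of 21 complex IV assembly factors, 4 lay below and 4 above without overlap (19.05% each way, all genes 9.02% and 18.9%; median −0.03), among them the copper chaperones Cox17 (−0.26) and Sco2 (0.22). The 10 complex I factors outside the rule had a median of 0.00, the 10 factors of complexes II and III one of 0.03, and the 7 complex V factors one of 0.00. The last group includes Atpif1, the inhibitor of ATP hydrolysis by F1, at 1164, 1027 and 944 TPM with vehicle against 941, 866 and 894 TPM with rMANF (−0.21 ± 0.09, limma adjusted p = 0.257), without overlap. The group also holds Usmg5, a small membrane subunit of ATP synthase whose symbol lies outside the rule. Usmg5 stood above every complex V member, at 2069, 2914 and 2959 TPM with vehicle. With rMANF it stood at 2678, 2736 and 2312 TPM, and the groups overlapped (difference −0.025). Of 6 carriers and pores, 1 lay below without overlap (16.7%, all genes 9.02%), namely Vdac2 (−0.21).

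Regulators of mitochondrial biogenesis were read as a group too. Of 12 tested, 9 lay higher and 4 did so without overlap (33.3%), with a median of 0.10, and none passed the test; over all genes 7366 of 12865 lay higher, 18.9% of all without overlap. Nrf1, the factor whose letters were searched above, stood at 15.7, 15.1 and 17.3 TPM with vehicle against 18.8, 19.0 and 20.3 TPM with rMANF (0.26 ± 0.09, limma adjusted p = 0.185). Polrmt, the mitochondrial RNA polymerase, stood at 9.99, 9.81 and 10.4 TPM and 13.1, 13.6 and 11.6 TPM (0.31 ± 0.10, limma adjusted p = 0.160). Ppargc1a, the coactivator that drives oxidative genes in heart and brown fat, did not exceed 0.18 TPM in any library.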

How the data were processed

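The authors deposited 1 table of log2 TPM (a length-corrected share of the library) with 1 column per library and 23494 genes; it holds no counts. Salmon 0.14.1, HTSeq 0.11.0, fastp, cutadapt and the build mm10 are named, per the submitters' processing notes, with no roles stated. Per the labels' protocols, libraries were made with a Nextera XT kit. All 6 libraries were used, and 0 columns belonged to other samples.

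Values of log2 TPM were turned back into TPM, with the lowest value, −9 (26578 entries), read as 0 TPM. Genes whose mean reached 1 TPM entered limma 3.58.1 (R 4.3.3) on log2(TPM + 1), with a variance trend on the mean and Benjamini-Hochberg adjustment over all 12865 genes, threshold 0.05; the fit was tested on simulated data. Such a difference understates the change of low genes. Transcript lengths, GC content, coordinates and shared runs of 31 bases came from GENCODE M21 (GRCm38), and promoter windows from RefSeq. Deviations of same-numbered vehicle and rMANF libraries correlated at −0.07, 0.03 and 0.05, within the −0.15 to 0.12 of differently numbered libraries. These values cannot show whether the numbers pair the libraries, and the labels do not say. The groups were compared unpaired, with a replicate block as an alternative.

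The members and gene lists were chosen with earlier results of these data known. Named genes are, in complexes I, III, IV and V, the 3 of smallest p, the most abundant and the largest difference against the median's sign, all of complex II, the isoform sets, and up to 3 genes of each other list by smallest p, with Cycs, Cyc1, Ppargc1a and Nrf1 always. The other genes named, mostly of complex V, were chosen after their values were seen. Alternatives covered scaling, pseudocount, filter, variance model, library weights, a replicate block, left-out libraries, muscle level, GC and length.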

Additional observations from a re-analysis of the deposited data

How the results depend on the processing

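The 3 libraries per group limit what can be called, and the depth behind the TPM values is unknown. The alternatives that removed trends on GC content or length were chosen after seeing the data. Genes passing an adjusted p of 0.05, 0 as reported, numbered 737 with library weights, 3 with the replicate block, 13 without vehicle replicates 1 and 2, and 0 to 4 when 1 library was left out (4 without vehicle replicate 1, 2 without rMANF replicate 1). Members passing numbered 2 with library weights (Uqcrh, adjusted p = 0.0319 by limma, and Ndufa11, 0.0434) and 0 under every other alternative run, the replicate block included, where the lowest adjusted p of a member was 0.147; over all alternatives it ran from 0.0319 to 0.667. Library weights counted vehicle replicate 1 least, at 0.28, and vehicle replicate 3 most, at 2.998, with vehicle replicate 2 at 0.5382. The rMANF libraries had 1.585, 1.127 and 1.251. Calls under these weights therefore rest mostly on 1 vehicle library.

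Members lying below without overlap, 24 as reported, numbered 25 to 43 when 1 library was left out, and 47 without vehicle replicates 1 and 2. Leaving out libraries cannot lower such a count, for members or for all genes. The rise above 24 is therefore no measure of a larger difference. Members lying above, 6 as reported, numbered 1 with median-of-ratios scaling, where 15.6% of all genes did so. They numbered 10 with the length trend removed and 13 without vehicle replicates 1 and 2. When 1 library was left out they numbered 6 to 12 (12 without vehicle replicate 2). These counts too cannot fall when libraries are left out. The share of all genes is not given here for most of these alternatives, so the counts describe the members alone. When 1 library was left out, the median of complex I ran from −0.126 to −0.0275, that of complex II from −0.0307 to 0.0472 and that of complex IV from −0.217 (without vehicle replicate 1) to −0.0858. The median of complex III, −0.01 as reported, ran from −0.115 (without vehicle replicate 1) to 0.0246 when 1 library was left out. That of complex V, −0.02 as reported, ran from −0.207 (without vehicle replicate 1) to −0.0123, was −0.167 under library weights, and came to −0.190 without vehicle replicates 1 and 2. The causes were not tested.

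Of 989 values of 45 named genes over 22 alternatives, 956 kept their sign and 33, in 14 genes, turned it. When 1 library was left out, the ranges that crossed 0 were −0.178 to 0.322 for Atp5e, −0.401 to 0.487 for Atp5k and −0.105 to 0.298 for Uqcr11 (each lowest without vehicle replicate 1), −0.0492 to 0.00646 for Sdhb, −0.0395 to 0.0879 for Sdhc, −0.333 to 0.0348 for Cox4i2, −0.255 to 0.0166 for Cox6b1 and −0.341 to 0.163 for Ndufa4l2. With vehicle replicates 1 and 2 left out, Atp5e was −0.227, Atp5k −0.362, Uqcr11 −0.0938, Sdhc −0.0280 and Cox8b 0.274. Library weights gave −0.123 for Atp5e, −0.268 for Atp5k and −0.0357 for Uqcr11. Sdhc was −0.0311 with median-of-ratios scaling and −0.0369 with quantile normalization. With the muscle covariate Sdhb was 0.0168, Sdhc −0.0315, Cox6b1 0.0792 and Cox8b 0.925. Removing the GC trend gave −0.0190 for Sdhc, −0.0240 for Cox8a and −0.0432 for Atp5g2, removing the length trend 0.0216 for Sdhb, and removing both 0.0438 for Ndufa4, 0.0109 for Atp5c1 and 0.0249 for Cox7b.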
